A study of Mus musculus with 8 samples.

Results

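The genes described here are 42 mouse genes of NRF2-driven antioxidant defence and glutathione metabolism, measured in primary hepatocytes with and without transglutaminase 2. Members were found by their exact gene symbol in the platform's annotation, and each gene was read on its brightest probe set, the one with the highest mean over all arrays. Of the 42 members, 39 had a probe set under that symbol alone and 38 were bright enough to be tested, out of 39627 probe sets usable on every array and 19814 tested. G6pdx and Prdx6 had no probe set under exactly those symbols, Prdx1 shared its probe sets with a second gene, and these 3 were not analysed here. Gpx2, a glutathione peroxidase, was too dim to be tested, with intensities of 4.06 and 9.84 in ethanol-treated KO cells, 37.8 and 21.6 in untreated KO cells, 23.5 and 15.1 in ethanol-treated WT cells, and 5.39 and 27 in untreated WT cells.

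The hepatocytes came from livers of Tgm2 knockout (TG2KO, here KO) and wild-type (WT) mice on a mixed C57BL6/129SVJ background. Cells of each genotype were cultured for 15 h with 100 mM ethanol or without it (0 mM), which gave 4 groups: ethanol-treated KO, untreated KO, ethanol-treated WT and untreated WT. Each group had 2 one-colour Affymetrix arrays, A and B, and paired values below are A and then B. The labels do not say whether A and B came from separate animals or cultures, so the p-values reflect nothing more than how far these samples spread, and that spread may be technical. The sources used here give no age, knockout allele or number of animals per culture. For array B of each ethanol group the labels conflict: the treatment field describes a control incubation, whereas the sample's name states 100 mM. Grouping went by the names, and results with ethanol are given with and without these arrays.

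NRF2, encoded by Nfe2l2, is a transcription factor that KEAP1 binds and sends for degradation by the proteasome. When electrophiles or oxidants modify cysteines of KEAP1, NRF2 accumulates, pairs with a small MAF protein such as MAFG and binds antioxidant response elements near its target genes. Many targets make, recycle or spend glutathione, the tripeptide that liver cells use in large amounts to conjugate drug metabolites and reduce peroxides. Ethanol metabolism in hepatocytes yields acetaldehyde and reactive oxygen species. Transglutaminase 2 crosslinks proteins, and the series title names its crosslinking of the transcription factor Sp1, which binds GC boxes, in liver injury.

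Promoters of 3 members are printed because each holds a match to the core of the antioxidant response element and because the genes differed in direction between genotypes: on their brightest probe sets Gclm was lower in KO cells, Gsta3 was higher, and Srxn1 was not called. The Gsta3 calls depended on the setting, and further Srxn1 probe sets were higher in KO cells with ethanol, as given below. They were chosen after the values were seen. The windows are RefSeq sequence of GRCm38.p6, on the gene's strand, with 250 bases before the annotated start and 50 after it. Gclm lies on the plus strand at chr3:122245307-122245606, Gsta3 on the plus strand at chr1:21240335-21240634, and Srxn1 on the plus strand at chr2:152105274-152105573. Capitals mark the match to TGACNNNGC, which lies on the opposite strand in Gclm and Srxn1 and reads as printed in Gsta3.
Gclm: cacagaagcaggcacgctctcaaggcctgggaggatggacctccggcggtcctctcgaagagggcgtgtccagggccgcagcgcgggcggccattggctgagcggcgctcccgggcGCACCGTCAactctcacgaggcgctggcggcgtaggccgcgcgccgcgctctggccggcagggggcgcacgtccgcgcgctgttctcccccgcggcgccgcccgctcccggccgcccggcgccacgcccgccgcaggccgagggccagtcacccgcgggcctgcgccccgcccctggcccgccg
Gsta3: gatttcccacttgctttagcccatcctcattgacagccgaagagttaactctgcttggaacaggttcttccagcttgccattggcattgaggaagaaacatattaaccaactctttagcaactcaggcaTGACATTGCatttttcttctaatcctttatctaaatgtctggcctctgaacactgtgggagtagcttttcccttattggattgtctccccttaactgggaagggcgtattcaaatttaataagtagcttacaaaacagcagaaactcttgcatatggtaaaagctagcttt
Srxn1: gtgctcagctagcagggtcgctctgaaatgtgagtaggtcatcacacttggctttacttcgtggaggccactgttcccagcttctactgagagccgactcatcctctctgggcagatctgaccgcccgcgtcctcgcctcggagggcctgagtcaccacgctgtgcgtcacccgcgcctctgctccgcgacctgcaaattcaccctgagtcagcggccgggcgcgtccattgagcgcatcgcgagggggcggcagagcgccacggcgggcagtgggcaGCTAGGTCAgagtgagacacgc
Counted from the start base as 0, the match began at -134 in Gclm, at -121 in Gsta3 and at 28, within the transcribed stretch, in Srxn1. Both strands were searched, and a match to this core can overlap an AP-1 type site. The core was found in 11 of the 34 measured members with a window (32.4%), against 14% of 27025 genes. The GC box GGGCGG, searched on both strands, was found in 23 of these 34 members (67.6%), against 38.2% of all genes. A match describes the letters of the window and is not evidence of binding.

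Tgm2 itself read 704 and 628 in ethanol-treated KO cells and 378 and 368 in untreated KO cells, against 16800 on both ethanol-treated WT arrays and 16700 and 16800 in untreated WT cells. The summed level of the 7 measured hepatocyte markers lay between 60500 and 65200 on all arrays. Single markers differed: Hnf4a, a hepatocyte transcription factor, read 820, 704, 467 and 430 in KO cells, against 1590, 1650, 1150 and 1200 in WT cells. Cyp2e1 went the other way, at 13700 to 16200 on KO arrays against 9510 to 10100 on WT arrays. Of the 7 hepatocyte markers, 2 were called higher and 4 lower in KO cells without ethanol, and 1 higher and 3 lower with it. The 8 macrophage markers summed to 1730 to 2540 on KO arrays and 1140 to 1250 on WT arrays, mostly from Cd68. Without Cd68 the other 7 summed to 495 to 685 on KO arrays and 678 to 734 on WT arrays, and Marco read 27.1 to 65.3 on KO arrays, against 109 to 142 on WT arrays. Of the 8 markers, 1 was called higher and 3 lower in KO cells without ethanol, and 1 higher and 1 lower with it. The 4 measured cholangiocyte markers summed to 768 to 1120 on KO arrays and 312 to 460 on WT arrays, mostly from Sox9, at 686 to 1050 on KO arrays against 232 to 323 on WT arrays. No macrophage or cholangiocyte marker was at 0. Of the KO arrays, 3 were dim before normalisation, with trimmed mean intensities of 98.47 to 103.1, against 198.7 to 297.4 on the other 5 arrays. The 3' to 5' ratio of Pcx, a measure of RNA integrity and of how far labelling reached, was 4.909 and 5.448 in ethanol-treated KO cells and 10.6 and 8.69 in untreated KO cells, against 26.7 and 44.55 in ethanol-treated WT cells and 10.02 and 16.8 in untreated WT cells. The part of Cd68, Marco, Sox9, Hnf4a, Cyp2e1, array brightness and this ratio in the genotype differences was not tested. In cultures measured in bulk, fewer cells of a type and less RNA per cell cannot be told apart.

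**Figure D1:**
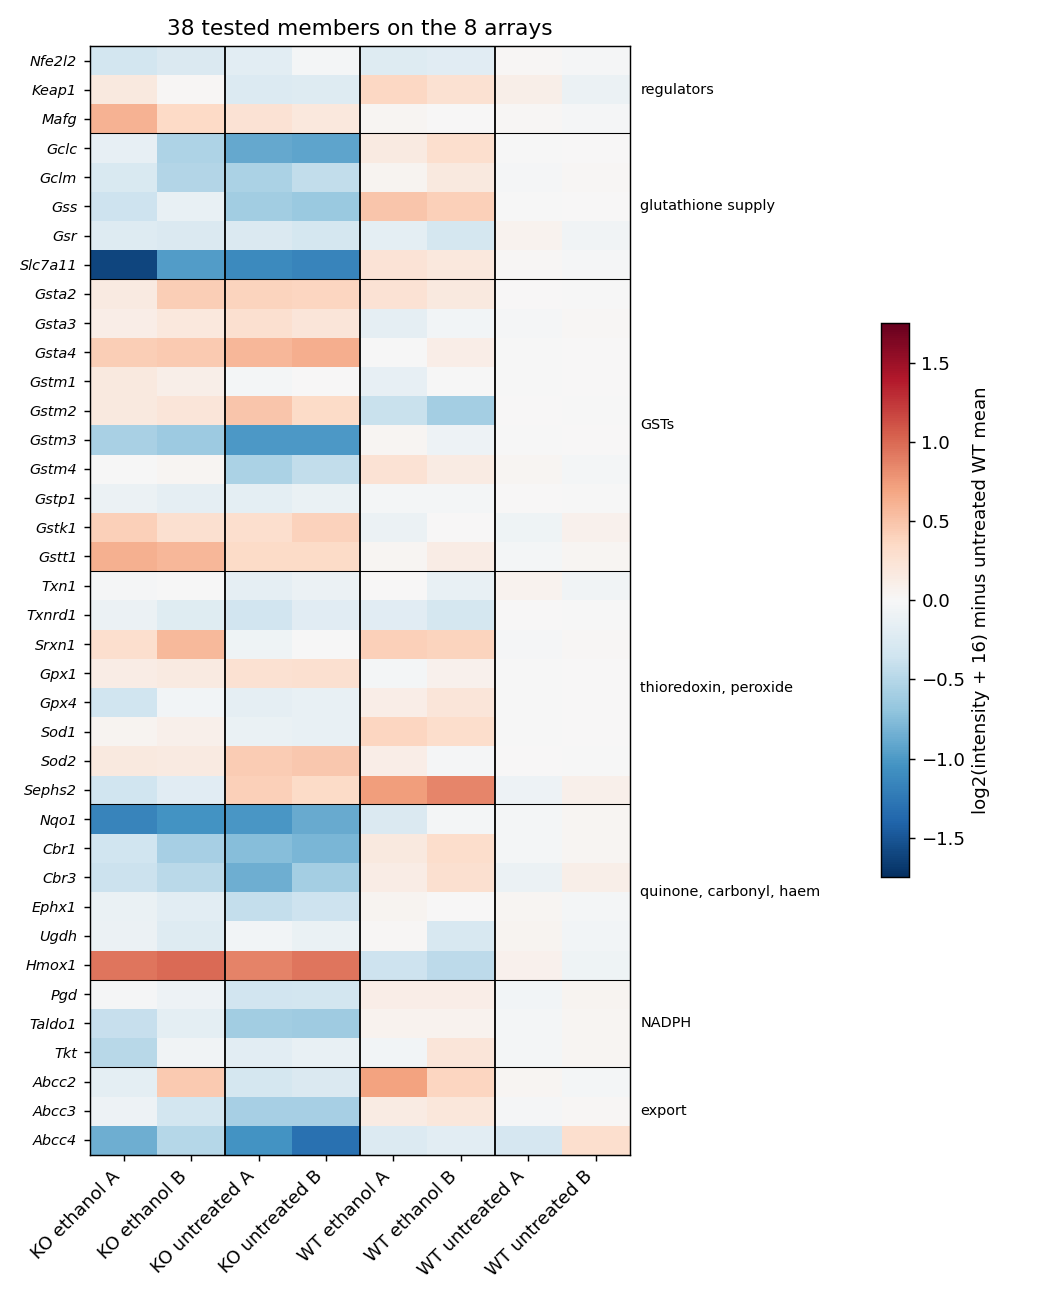
Each of the 38 tested genes on each array, as log2(intensity + 16) minus the mean of the untreated WT arrays, with KO arrays left of WT arrays and genes grouped by role. Glutathione supply, Nqo1 and the carbonyl reductases are below the untreated WT mean on the KO arrays, and Hmox1 is above it.

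The first question was how the genotypes differed without ethanol. In untreated KO cells, the enzymes and the transporter that supply glutathione, NQO1, the carbonyl reductases and 2 export pumps were lower than in untreated WT cells, while haem oxygenase and 6 glutathione transferases were higher. Of the 38 tested members, 10 were higher and 16 lower at an adjusted p under 0.05 (limma moderated test on log2(intensity + 16), Benjamini-Hochberg over the 19814 probe sets tested). That is 68.4% of members, where 32.3% of all probe sets tested were called. Members are bright, and among probe sets with a mean log2 of at least 9 the called share was 52%, against 65.7% (23 of 35) for members that bright. The median log2 difference was -0.16 over the members and -0.035 over all probe sets. Scaling arrays by trimmed mean in place of quantile normalisation gave 15 higher and 12 lower (55.6% higher, against 38.5%), with 22 of the 26 calls the same and none opposite. The 4 lost were Ephx1, Gsr, Pgd and Txnrd1, and Gstm1, Gstp1, Srxn1, Tkt and Txn1 became higher.

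With 100 mM ethanol in both genotypes, 8 members were higher and 13 lower in KO than in WT cells, 55.3% of 38, where 29.1% of all probe sets tested were called. Among probe sets with a mean log2 of at least 9 the shares were 54.3% of members (19 of 35) and 46% of all. The median difference was -0.17 over the members and -0.047 over all probe sets, and trimmed-mean scaling moved the median of all probe sets by 0.11. Without both B ethanol arrays 22 members were called, 19 of them among the 21, and Cbr3 and Abcc3 were not. That fit has 1 ethanol array per genotype, which is assumed to vary like the untreated arrays. When those arrays were counted as untreated, Slc7a11, Nqo1 and Hmox1 alone were called. The 2 genotype comparisons share no array. Called in the same direction in both were 6 higher members (Gsta3, Gsta4, Gstm2, Gstk1, Gstt1 and Hmox1) and 10 lower ones (Gclc, Gclm, Gss, Slc7a11, Gstm3, Nqo1, Cbr1, Cbr3, Taldo1 and Abcc3). These 16 are 76.2% of the calls with ethanol and 61.5% of the calls without it. Sephs2 was called in opposite directions. Shared calls were not counted over all probe sets, so these shares have no background beside them. Whether they are particular to the members was not tested. The KO and WT arrays did not overlap on any called member, but with 2 arrays a group the same held for 36 of all 38 members without ethanol and 31 of 38 with it. Overlap was not counted over all probe sets. The spike-in controls bioC and bioB divided the arrays into a set with a high bioC/bioB ratio (2.586 to 3.136) and a set with a low one (0.937 to 1.058). A fit with this set as a term called 26 members without ethanol, 25 of them among the 26 above, and 23 with ethanol, including all 21 above.

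**Figure D2:**
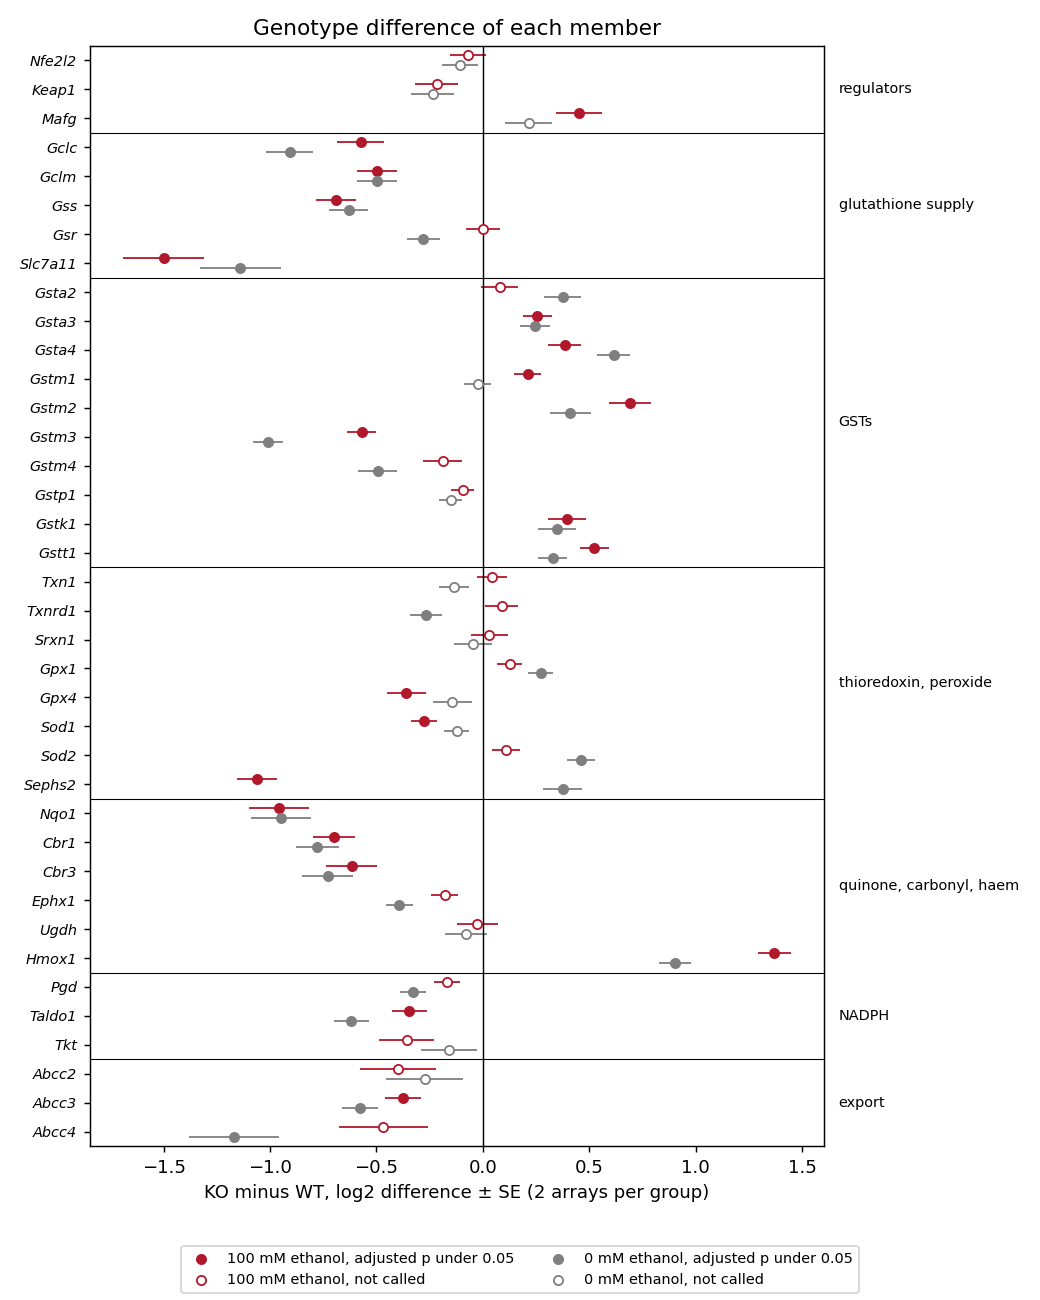
KO minus WT log2 difference of each tested member with its standard error (2 arrays per group), with 100 mM ethanol and with 0 mM. Filled points passed an adjusted p under 0.05. Slc7a11 and Nqo1 lie far left of 0 and Hmox1 far right in both comparisons, and Sephs2 has 1 filled point on each side.

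Of the 3 regulators, read on their brightest probe sets, none was called without ethanol and Mafg was higher with it. Nfe2l2 read 1150 and 1280 in untreated KO cells, against 1330 and 1290 in untreated WT cells, a log2 difference of -0.108 ± 0.084 (SE, adjusted p 0.37, limma). In the ethanol groups it read 1050 and 1100 in KO cells, against 1120 and 1140 in WT cells, a difference of -0.0697 ± 0.084 (adjusted p 0.58). Each KO array lay below the WT arrays of its comparison, by amounts that did not pass the test. Keap1 read 525 and 527 in untreated KO cells, against 666 and 580 in untreated WT cells (log2 difference -0.235 ± 0.1, adjusted p 0.12). With ethanol Keap1 read 703 and 633 in KO cells, against 802 and 754 in WT cells (-0.217 ± 0.1, adjusted p 0.15). A further, dimmer Keap1 probe set was called lower in untreated KO cells (-0.769, adjusted p 0.0032). With ethanol that probe set was called higher in KO cells (0.781, adjusted p 0.0035). Mafg, the small MAF partner, was higher in KO cells with ethanol, at 697 and 578 against 465 and 454 in WT cells (0.452 ± 0.11, adjusted p 0.015). That call was lost on leaving out KO array A or either WT array of the ethanol groups. The other Mafg probe set was not called there (0.0658, adjusted p 0.75). Transcript levels do not measure the NRF2 protein, which KEAP1 controls after translation.

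All 5 genes of glutathione supply were lower in untreated KO cells, and 4 of 5 were lower with ethanol. Slc7a11, the cystine carrier of system xc-, read 171 and 166 in untreated KO cells, against 394 and 385 in untreated WT cells. With ethanol Slc7a11 read 117 and 190 in KO cells, against 461 and 444 in WT cells. Every KO array was below every WT array, and the log2 difference was -1.14 ± 0.19 without ethanol (0.455-fold, adjusted p 0.0016) and -1.5 ± 0.19 with it (0.354-fold, adjusted p 0.00041). A further, dimmer Slc7a11 probe set was not called, at -0.345 without ethanol (adjusted p 0.26) and -0.166 with it (adjusted p 0.61). Gclc, the catalytic subunit of glutamate-cysteine ligase, the enzyme that limits glutathione synthesis, read 2230 and 2180 in untreated KO cells, against 4140 and 4170 in untreated WT cells. The difference was -0.907 ± 0.11 (0.533-fold, adjusted p 0.00037). With ethanol Gclc read 3750 and 2840 in KO cells, against 4630 and 5120 in WT cells (-0.573 ± 0.11, adjusted p 0.0052), so the groups did not overlap but the KO arrays lay further apart.

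Gclm, the modifier subunit of the same ligase, was lower in both comparisons. It read 1690 and 1840 in untreated KO cells, against 2450 and 2540 in untreated WT cells (-0.495 ± 0.094, adjusted p 0.0034). With ethanol Gclm read 2070 and 1750 in KO cells, against 2590 and 2800 in WT cells (-0.499 ± 0.094, adjusted p 0.0038). Gss, glutathione synthetase, which adds glycine in the last step, read 937 and 912 in untreated KO cells, against 1430 and 1450 in untreated WT cells (-0.63 ± 0.092, adjusted p 0.0008). With ethanol Gss read 1120 and 1320 in KO cells, against 2030 and 1920 in WT cells (-0.69 ± 0.092, adjusted p 0.00056). Gsr, glutathione reductase, which regenerates glutathione with NADPH, differed by -0.279 ± 0.078 in untreated cells (adjusted p 0.022). That call was lost under trimmed-mean scaling and when untreated array KO A, KO B or WT A was left out. With ethanol its difference was 0.00131 ± 0.078 (adjusted p 0.99). The other Gsr probe set was higher in KO cells with ethanol (0.666, adjusted p 0.0014) and lower with ethanol in WT cells (-0.766, adjusted p 0.0034).

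**Figure D3:**
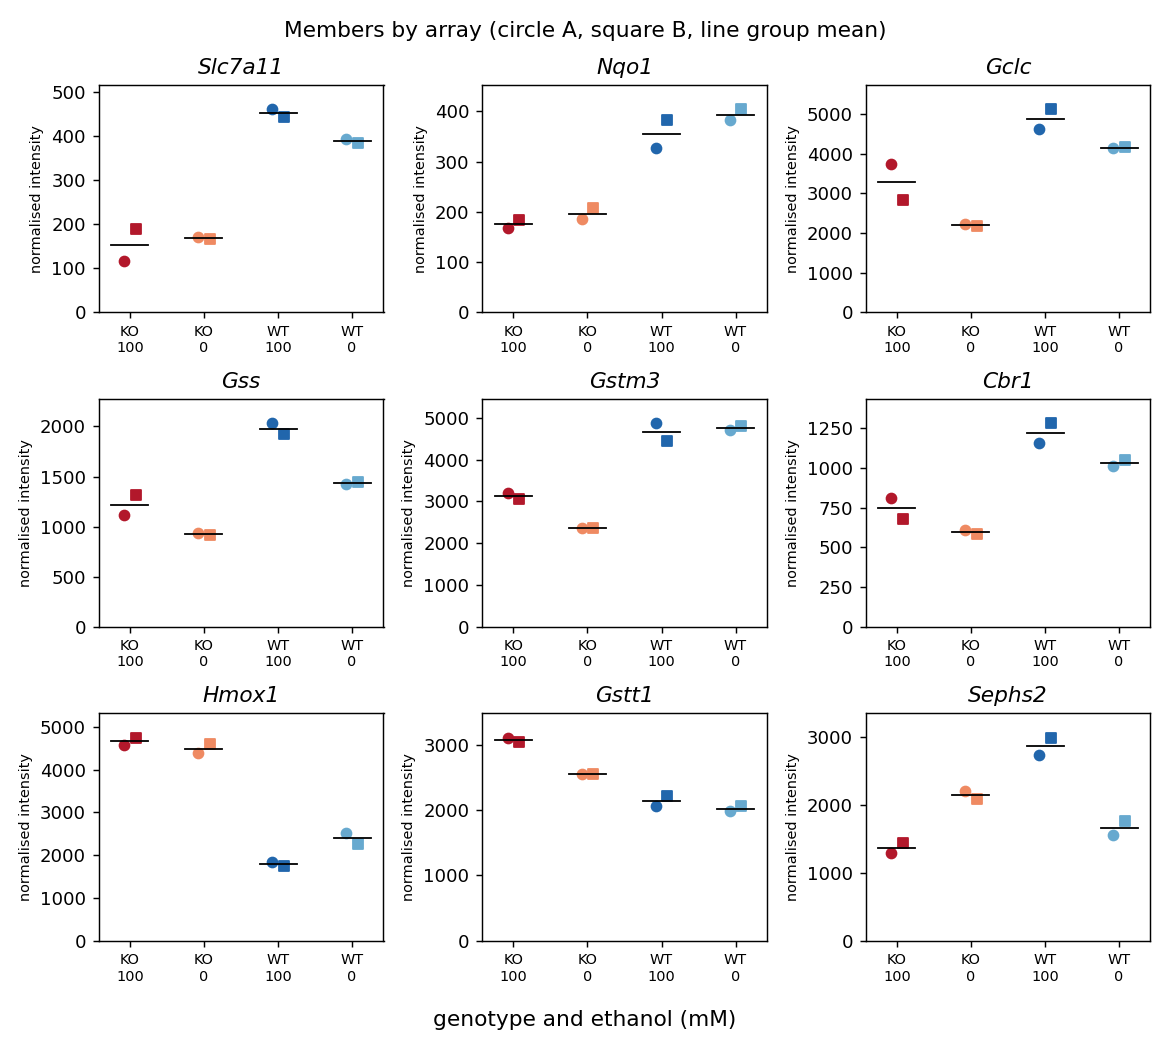
Normalised intensity of 9 members on every array, with circles for A, squares for B and a line at each group mean, for KO with 100 mM and 0 mM ethanol and WT with 100 mM and 0 mM. For Slc7a11, Nqo1, Gclc, Gss, Gstm3 and Cbr1 all 4 KO arrays lie below all 4 WT arrays, for Hmox1 and Gstt1 all 4 lie above, and Sephs2 crosses.

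The glutathione transferases, which join glutathione to electrophiles, split by gene. In untreated KO cells 6 of 10 were higher and 2 lower; with ethanol 6 were higher and 1 lower. Gsta4, which handles the lipid peroxidation product 4-hydroxynonenal, read 1880 and 1960 in untreated KO cells, against 1240 and 1260 in untreated WT cells (0.615 ± 0.077, 1.53-fold, adjusted p 0.00035). Gstm2 read 1070 and 1100 in ethanol-treated KO cells, against 718 and 620 in ethanol-treated WT cells (0.692 ± 0.098, adjusted p 0.0008), and its untreated difference was 0.412 ± 0.098 (adjusted p 0.01). Gstt1 read 3110 and 3050 in ethanol-treated KO cells, against 2070 and 2210 in ethanol-treated WT cells (0.524 ± 0.069, adjusted p 0.00054). Gsta4, Gstm2 and Gstt1 did not overlap between genotypes in either comparison, as held for 36 of 38 members without ethanol and 31 with it.

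Gstm3 went the other way. It read 2370 and 2360 in untreated KO cells, against 4720 and 4800 in untreated WT cells, a log2 difference of -1.01 ± 0.069 (0.498-fold, adjusted p 1.1e-05). With ethanol Gstm3 read 3210 and 3060 in KO cells, against 4870 and 4460 in WT cells (-0.569 ± 0.069, adjusted p 0.00032). The other Gstm3 probe set was lower without ethanol (-0.986, adjusted p 0.00018) and not called with it (-0.224, adjusted p 0.16). Gstm4 was lower without ethanol (-0.494 ± 0.091, adjusted p 0.0029) and not called with it (-0.188 ± 0.091, adjusted p 0.15). Gsta2 was higher without ethanol (0.376 ± 0.086, adjusted p 0.0085), a call lost on leaving out either untreated KO array or untreated WT array B. Gstk1, the mitochondrial and peroxisomal kappa enzyme, and Gsta3 were higher in both comparisons by 0.246 to 0.394. The Gsta3 call was lost under 6 alternatives in each comparison: without ethanol on leaving out any of the 4 untreated arrays, and with ethanol on leaving out WT ethanol array A or under trimmed-mean scaling, while 1 row per gene turned it to -0.0172. The second Gsta3 probe set had -0.291 with ethanol (adjusted p 0.14). The Gstk1 call was lost under 3 alternatives in each comparison, among them leaving out untreated array KO B or WT A, or WT ethanol array A. Gstm1 was called higher with ethanol (0.211 ± 0.064, adjusted p 0.033), a call lost under 13 alternatives, and Gstp1 was not called in either comparison. Gstm1 and Gstp1 read 10500 to 15500 on every array, where the highest normalised intensity in the series was 18000. The mu-class genes are near copies in sequence. The brightest probe sets of Gstm1 and Gstm3 carry suffixes that Affymetrix gives to probes shared by several transcripts, so their differences may mix genes. Those of Srxn1, Gpx4, Pgd, Tkt and Abcc2, described below, carry such suffixes too.

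On the brightest probe sets of the genes of thioredoxin and peroxide reduction, differences were smaller apart from Sephs2. In untreated KO cells 3 of 8 genes were higher (Sod2, Sephs2 and Gpx1) and Txnrd1 was lower. With ethanol 3 were lower (Sephs2, Gpx4 and Sod1) and none higher. Further probe sets of Txnrd1 and Srxn1 were higher in KO cells with ethanol, as given below. Sephs2, which makes the selenophosphate used for selenoproteins such as the GPX enzymes and thioredoxin reductases, read 2210 and 2090 in untreated KO cells, against 1550 and 1760 in untreated WT cells (0.375 ± 0.093, adjusted p 0.012). In the ethanol groups Sephs2 read 1290 and 1440 in KO cells, against 2740 and 2990 in WT cells (-1.06 ± 0.093, 0.48-fold, adjusted p 4.7e-05). On this probe set the genotypes changed places, with no overlap either time, but neither of the other Sephs2 probe sets crossed. The second was higher in KO cells in both comparisons (0.75 without ethanol, adjusted p 0.0011, and 0.817 with it, adjusted p 0.0008). The third differed by -0.254 without ethanol (adjusted p 0.058) and -0.522 with it (adjusted p 0.0024). The untreated call on the brightest probe set was lost under 4 alternatives, among them leaving out untreated array KO A or WT A, and its sign turned (-0.0987) when the B ethanol arrays were counted as untreated. Sod2, the mitochondrial superoxide dismutase, read 6950 and 7050 in untreated KO cells, against 5110 and 5050 in untreated WT cells (0.461 ± 0.065, adjusted p 0.00069). With ethanol Sod2 differed by 0.108 ± 0.065 (adjusted p 0.25). Gpx1, the main cytosolic glutathione peroxidase, differed by 0.272 ± 0.059 without ethanol (adjusted p 0.0068) and by 0.126 ± 0.059 with it (adjusted p 0.14). Gpx4, which reduces lipid peroxides in membranes, was lower with ethanol, at 4100 and 5040 in KO cells against 5650 and 6030 in WT cells (-0.36 ± 0.092, adjusted p 0.017). Sod1 was lower with ethanol by 0.277 on the log2 scale (-0.277 ± 0.06, adjusted p 0.0078). The Gpx4 and Sod1 calls were each lost under 6 alternatives, and the other Gpx4 probe set had -0.0185 with ethanol (adjusted p 0.87).

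Txnrd1, cytosolic thioredoxin reductase and a classical NRF2 target, read 3720 and 4120 in untreated KO cells, against 4750 and 4680 in untreated WT cells (-0.267 ± 0.077, adjusted p 0.026). With ethanol it read 4390 and 4060 in KO cells, against 4120 and 3820 in WT cells, which overlapped (0.0888 ± 0.077, adjusted p 0.43). The untreated call was lost under 10 of the alternatives. Srxn1, sulfiredoxin, which repairs over-oxidised peroxiredoxins, read 6360 and 6670 in untreated KO cells, against 6630 and 6820 in untreated WT cells (-0.0455 ± 0.088, adjusted p 0.74). Trimmed-mean scaling turned that to 0.281 (adjusted p 0.032). In the ethanol groups Srxn1 read 8210 and 10000 in KO cells, against 8950 and 8790 in WT cells, which overlapped (0.0305 ± 0.088, adjusted p 0.83). Txn1, thioredoxin itself, was not called in either comparison (-0.137 ± 0.07 without ethanol, adjusted p 0.17), and trimmed-mean scaling turned it to 0.443 without ethanol.

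Of the quinone, carbonyl, epoxide and haem enzymes, 4 of 6 were lower in untreated KO cells, 3 were lower with ethanol, and Hmox1 was higher in both. Nqo1, the quinone reductase often read as an index of NRF2 activity, read 186 and 207 in untreated KO cells, against 383 and 404 in untreated WT cells. With ethanol it read 167 and 183 in KO cells, against 328 and 383 in WT cells. The differences were -0.948 ± 0.14 without ethanol (0.518-fold, adjusted p 0.00072) and -0.957 ± 0.14 with it (0.515-fold, adjusted p 0.0008), and no KO array reached a WT array. The carbonyl reductases were lower too. Cbr1 read 607 and 582 in untreated KO cells, against 1010 and 1050 in untreated WT cells (-0.777 ± 0.1, adjusted p 0.00048). With ethanol Cbr1 read 809 and 681 in KO cells, against 1160 and 1280 in WT cells (-0.699 ± 0.1, adjusted p 0.001). Its neighbour Cbr3 differed by -0.729 ± 0.12 without ethanol (adjusted p 0.0015) and -0.616 ± 0.12 with it (adjusted p 0.0044).

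Hmox1, haem oxygenase 1, which breaks haem down to biliverdin, iron and carbon monoxide, had the largest positive difference of the 38 members in both comparisons. It read 4390 and 4590 in untreated KO cells, against 2530 and 2260 in untreated WT cells (0.904 ± 0.077, 1.87-fold, adjusted p 4.1e-05). With ethanol Hmox1 read 4570 and 4750 in KO cells, against 1850 and 1740 in WT cells (1.37 ± 0.077, 2.59-fold, adjusted p 3.5e-06). All 4 KO arrays were above all 4 WT arrays, and the 4 KO arrays lay between 4390 and 4750. Ephx1, microsomal epoxide hydrolase, was lower without ethanol (-0.393 ± 0.064, adjusted p 0.0015), a call lost under trimmed-mean scaling. Ugdh, which makes UDP-glucuronate for glucuronidation, read between 5200 and 6560 on all arrays and was not called.

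NADPH for glutathione reductase comes from the pentose phosphate pathway. Taldo1, transaldolase, read 2890 and 2870 in untreated KO cells, against 4330 and 4520 in untreated WT cells (-0.617 ± 0.081, adjusted p 0.00046), and differed by -0.345 ± 0.081 with ethanol (adjusted p 0.011). Pgd, 6-phosphogluconate dehydrogenase, was lower without ethanol (-0.329 ± 0.061, adjusted p 0.003), a difference that trimmed-mean scaling reduced to 0.00385. Tkt, transketolase, was not called in either comparison on its brightest probe set (-0.159 ± 0.13 without ethanol, adjusted p 0.39). A further Tkt probe set was lower in KO cells without ethanol (-0.716, adjusted p 8.7e-05) and with it (-0.323, adjusted p 0.0075). The export pumps of the ABCC family carry conjugates and bile salts out of the cell. Abcc3 read 2140 and 2130 in untreated KO cells, against 3150 and 3250 in untreated WT cells (-0.577 ± 0.085, adjusted p 0.00084). Abcc4 read 127 and 103 in untreated KO cells, against 225 and 343 in untreated WT cells (-1.17 ± 0.21, 0.443-fold, adjusted p 0.0028). It was dim and its WT arrays spread widely, and with ethanol its difference was -0.468 ± 0.21 (adjusted p 0.14). Abcc2, the canalicular pump, was not called (-0.273 ± 0.18 without ethanol, adjusted p 0.29).

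The next comparisons set ethanol-treated against untreated cells within each genotype. In KO cells, 12 members were higher and 2 lower with ethanol than without, 36.8% of 38, where 22.2% of all probe sets tested were called. Among probe sets with a mean log2 of at least 9 the shares were 40% of members (14 of 35) and 39.5% of all. The members' median difference was 0.11 and that of all probe sets -0.0054. Trimmed-mean scaling gave 6 higher and 8 lower (42.9% higher, against 85.7%), so the direction of the group as a whole depended on the scaling. The 8 calls made under both scalings were Gclc, Gss, Gstm3, Gstm4, Keap1 and Abcc3 higher and Sephs2 and Sod2 lower.

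Gclc read 3750 and 2840 in ethanol-treated KO cells, against 2230 and 2180 in untreated KO cells (0.561 ± 0.11, 1.48-fold, adjusted p 0.0086). Gstm4 read 808 and 832 in ethanol-treated KO cells, against 551 and 599 in untreated KO cells (0.501 ± 0.091, adjusted p 0.0051). Gstm3, low in KO cells, was higher with ethanol by 0.405 ± 0.069 (adjusted p 0.0038) and stayed below every WT array. Srxn1 read 8210 and 10000 in ethanol-treated KO cells, against 6360 and 6670 in untreated KO cells (0.475 ± 0.088, adjusted p 0.0056), a call lost under trimmed-mean scaling. Gss was higher by 0.391 ± 0.092 (adjusted p 0.015) and Keap1 by 0.334 ± 0.1 (adjusted p 0.048, lost under 13 alternatives). Sephs2 read 1290 and 1440 in ethanol-treated KO cells, against 2210 and 2090 in untreated KO cells (-0.646 ± 0.093, adjusted p 0.0019). Sod2 was lower by 0.298 on the log2 scale (-0.298 ± 0.065, adjusted p 0.012). The other called members, Abcc3, Taldo1, Pgd, Gstt1, Ephx1 and Sod1, were higher with ethanol by 0.191 (Sod1) to 0.37 (Abcc3). Nqo1 (-0.152 ± 0.14, adjusted p 0.45), Hmox1 (0.0543 ± 0.077, adjusted p 0.65), Slc7a11 (-0.155 ± 0.19, adjusted p 0.59), Gclm (0.107 ± 0.094, adjusted p 0.44), Txnrd1 (0.108 ± 0.077, adjusted p 0.35) and Nfe2l2 (-0.172 ± 0.084, adjusted p 0.17) were not called. Further probe sets went otherwise: that of Gclm was lower with ethanol in KO cells (-0.848, adjusted p 0.0012) and in WT cells (-0.556, adjusted p 0.019), and 1 of Txnrd1 was higher in KO cells (0.663, adjusted p 0.017).

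In WT cells, 4 members were higher and 2 lower with ethanol, 15.8% of 38, where 5.58% of all probe sets tested were called. Among probe sets with a mean log2 of at least 9 the shares were 17.1% of members (6 of 35) and 12.1% of all. The members' median difference was 0.059, against 0.014 over all probe sets. Sephs2 read 2740 and 2990 in ethanol-treated WT cells, against 1550 and 1760 in untreated WT cells (0.789 ± 0.093, 1.73-fold, adjusted p 0.0018). Sod1, the cytosolic superoxide dismutase, read 7600 and 7240 in ethanol-treated WT cells, against 5830 and 5850 in untreated WT cells (0.345 ± 0.06, adjusted p 0.011). Gss read 2030 and 1920 in ethanol-treated WT cells, against 1430 and 1450 in untreated WT cells (0.451 ± 0.092, adjusted p 0.023). These 3 genes had ethanol-treated arrays above both untreated arrays, but 26 of all 38 members had no overlap in this comparison. That was not counted over all probe sets. The other Sephs2 probe sets were not called (0.2 and -0.377), and the Sephs2 call was lost with 1 row per gene.

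Srxn1 was also higher with ethanol in WT cells (0.399 ± 0.088, adjusted p 0.032). Hmox1 read 1850 and 1740 in ethanol-treated WT cells, against 2530 and 2260 in untreated WT cells, and was lower by 0.413 on the log2 scale (-0.413 ± 0.077, adjusted p 0.016). Gstm2 read 718 and 620 in ethanol-treated WT cells, against 955 and 937 in untreated WT cells (-0.494 ± 0.098, adjusted p 0.021). Nqo1 (-0.143 ± 0.14, adjusted p 0.67), Gclc (0.228 ± 0.11, adjusted p 0.34), Gclm (0.112 ± 0.094, adjusted p 0.62), Slc7a11 (0.207 ± 0.19, adjusted p 0.65), Keap1 (0.316 ± 0.1, adjusted p 0.13), Txnrd1 (-0.248 ± 0.077, adjusted p 0.11) and Nfe2l2 (-0.21 ± 0.084, adjusted p 0.21) were not called. Further Txnrd1 probe sets were called lower with ethanol in WT cells, at -1.39 (adjusted p 0.0016) and -1.29 (adjusted p 0.0054). The members called higher with ethanol in both genotypes were Gss, Srxn1 and Sod1, 21.4% of the calls in KO cells and 50% of those in WT cells. Shared calls over all probe sets were not counted here either. The Sod1 call was lost under 15 of 19 alternatives in KO cells, where trimmed-mean scaling turned it to -0.0528, and under 8 of 20 in WT cells, where 1 row per gene turned it to -0.111. The Srxn1 call in WT cells was lost under 11 of 20, and 2 further Srxn1 probe sets had -0.212 and -0.0918 there. Gss was lost under 5 of 19 in KO cells and 9 of 20 in WT cells. Without both B ethanol arrays 22 members were called in KO cells, including all 14, and 7 in WT cells, including all but Gstm2. The number called with 1 array left out ran between 2 and 21 in KO cells and between 1 and 10 in WT cells.

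**Figure D4:**
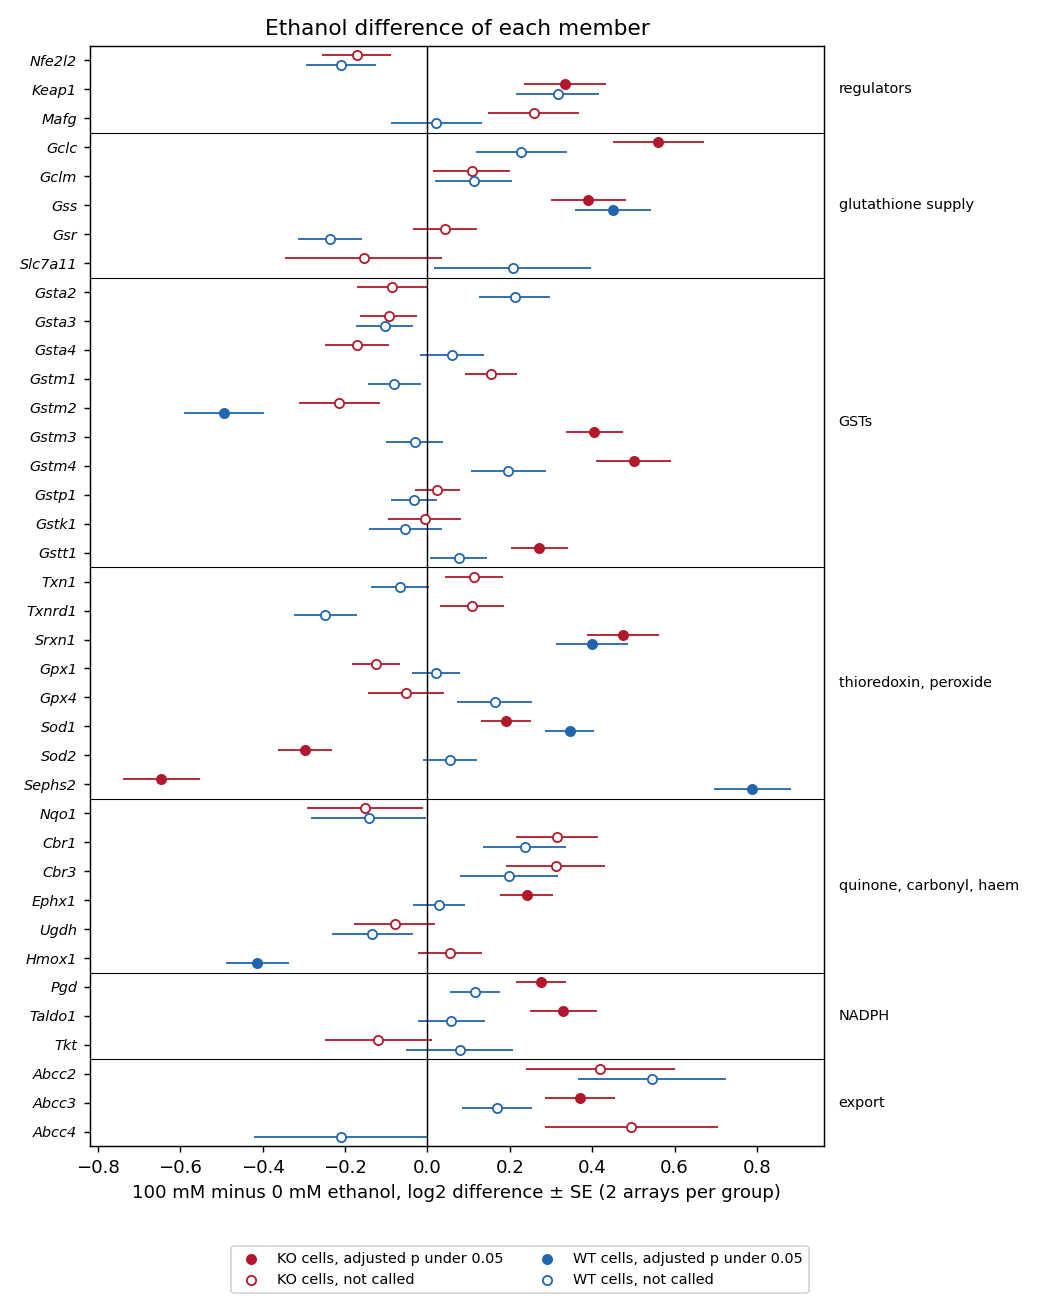
Difference between 100 mM and 0 mM ethanol for each tested member with its standard error (2 arrays per group), in KO and in WT cells. Filled points passed an adjusted p under 0.05. Sephs2 lies left of 0 in KO cells and right of 0 in WT cells.

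The difference between the ethanol effects, KO minus WT, was called for 3 of 38 members (7.89%), 2 of them positive, where 5.35% of all probe sets tested were called. Among probe sets with a mean log2 of at least 9 the shares were 8.57% of members and 11.4% of all. Sephs2 had an interaction of -1.44 ± 0.13 (adjusted p 0.0014): on this probe set ethanol-treated cells were lower than untreated in KO and higher in WT. It rests on 1 of 3 probe sets, since the other Sephs2 probe sets had interactions of -0.269 (adjusted p 0.25) and 0.0669 (adjusted p 0.85). Hmox1 had 0.467 ± 0.11 (adjusted p 0.041), with a lower level under ethanol in WT cells and little difference in KO cells. Gstm3 had 0.436 ± 0.097 (adjusted p 0.035). Trimmed-mean scaling gave 5 calls, all negative (0% positive, against 66.7%), of which Sephs2 was the only shared one, and Sephs2 was the only one of the 3 called without any single untreated array. On their brightest probe sets the other classical targets and regulators were not called. Further probe sets of Txnrd1, Srxn1 and Keap1 were, as given below. Nfe2l2 (0.0382 ± 0.12, adjusted p 0.88), Nqo1 (-0.00904 ± 0.19, adjusted p 0.98) and Gclm (-0.00411 ± 0.13, adjusted p 0.99) had interactions close to 0. The corresponding values were 0.356 ± 0.11 for Txnrd1 (adjusted p 0.097), 0.334 ± 0.16 for Gclc (adjusted p 0.26) and -0.362 ± 0.27 for Slc7a11 (adjusted p 0.46). Without both B ethanol arrays 12 were called, including Sephs2 and Gstm3.

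Other probe sets of the same gene did not always follow the brightest one. For 19 members, 29 further probe sets were tested. Their KO minus WT difference with ethanol was above that of the brightest probe set for 21 and below it for 8 (median distance 0.24), against 15 above and 14 below without ethanol (median 0.019). Of Txnrd1, a second probe set read 816 and 784 in ethanol-treated KO cells, against 170 and 118 in ethanol-treated WT cells, a difference of 2.37. On the untreated arrays the same probe set read 537 and 464 in KO cells, against 421 and 376 in WT cells. The brightest Txnrd1 probe set thus showed no call where this one showed a large difference. A Srxn1 probe set read 5010 and 5310 in ethanol-treated KO cells, against 2570 and 2580 in ethanol-treated WT cells (0.995, adjusted p 4.8e-05), and another differed by 0.798 (adjusted p 2.9e-05). A dim Keap1 probe set read 293 and 259 in ethanol-treated KO cells, against 155 and 153 in ethanol-treated WT cells, and 124 on both untreated KO arrays, against 235 and 211 in untreated WT cells. For Sephs2, a further probe set read 1960 and 1720 in ethanol-treated KO cells, against 1170 and 917 in ethanol-treated WT cells, and so was called higher (0.817) where the brightest was called lower. The ethanol-treated WT arrays had the highest Pcx 3' to 5' ratios, and its part in these disagreements was not tested.

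**Figure D5:**
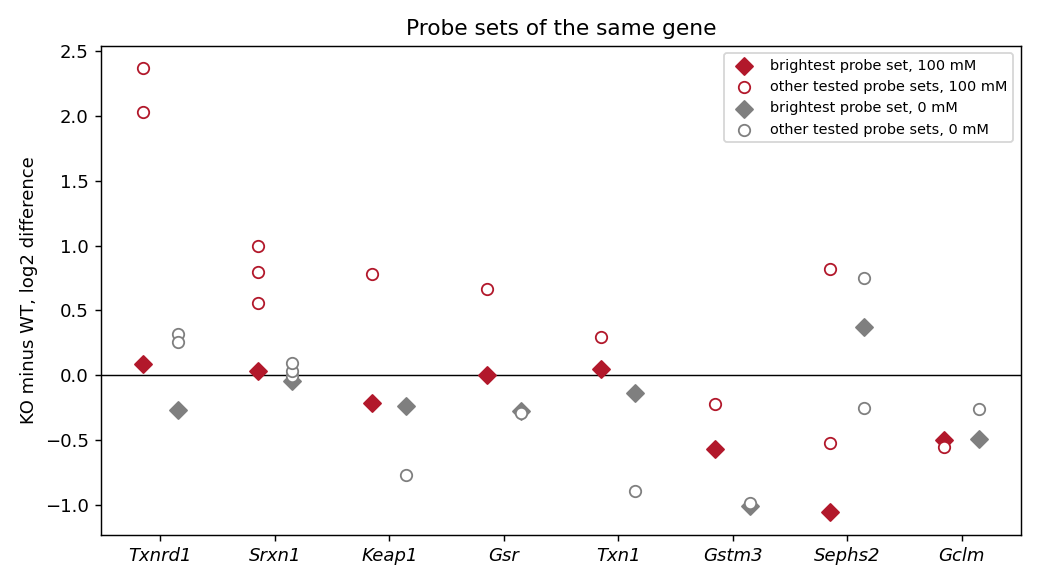
KO minus WT log2 difference of the brightest probe set (diamonds) and of the other tested probe sets (open circles) of 8 members, with 100 mM and 0 mM ethanol. The other probe sets of Txnrd1 reach 2.37 with ethanol, and those of Sephs2 lie on both sides of 0.

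Further genes of the pathway were taken from a list of 60 genes in the same pathways, of which 53 were measured and 51 tested. In untreated KO cells 13 were higher and 22 lower (68.6% of those tested), and with ethanol 11 were higher and 12 lower (45.1%). All probe sets tested were called at 32.3% and 29.1%, and those with a mean log2 of at least 9 at 52% and 46%, so the list's share with ethanol was near that of bright probe sets. Gpx3, the secreted glutathione peroxidase, differed by -2.38 ± 0.16 without ethanol (adjusted p 1e-05) and -2.02 ± 0.16 with it (adjusted p 2.5e-05). Cbs, which starts the route that makes cysteine from homocysteine, differed by -1.35 ± 0.12 without ethanol (adjusted p 5e-05). Osgin1, an NRF2 target, differed by -1.95 ± 0.079 without ethanol (adjusted p 3.8e-07) and -0.71 ± 0.079 with it (adjusted p 0.0002). Maff, a small MAF, was higher by 1.15 ± 0.15 without ethanol (adjusted p 0.00049), and Bach1, which represses Hmox1 in competition with NRF2, by 0.813 ± 0.12 (adjusted p 0.001). Aldh3a2, Gstm6 and Me1 were called higher in KO cells in both comparisons. Their differences were 0.83, 0.792 and 0.428 without ethanol and 0.819, 1.2 and 1.01 with it. The genes named from this list are examples and were not picked by a set rule. With ethanol against without, 15 were higher and 5 lower in KO cells (39.2%), and 1 was higher and 2 lower in WT cells (5.88%). All probe sets tested were called at 22.2% in KO and 5.58% in WT cells, and bright ones at 39.5% and 12.1%. Neither share of the list was above that of bright probe sets. Osgin1 was higher with ethanol in KO cells by 1.56 ± 0.079 (adjusted p 2.7e-05) and in WT cells by 0.323 ± 0.079 (adjusted p 0.047). The difference between these ethanol effects, KO minus WT, was 1.24 ± 0.11 (adjusted p 0.0014). Chac1, which cleaves glutathione, was higher with ethanol in KO cells by 1.18 ± 0.095 (adjusted p 0.00024), and Slc3a2, the heavy chain that pairs with Slc7a11, by 0.623 ± 0.11 (adjusted p 0.0041). Among the 5 lower ones there, Abcc1 differed by -0.541 ± 0.12 (adjusted p 0.01) and Cul3 by -0.393 ± 0.079 (adjusted p 0.0079).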

How the data were processed

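RNA of mouse primary hepatocytes was labelled as biotin cRNA and hybridised to 8 one-colour arrays, per the labels' protocols. The authors deposited intensity values on a linear scale for every probe set of each array. How they were summarised and scaled, and which genome build applied, is not given in the sources used here. Of 45101 probe sets, 64 were controls. Array B of WT cells with ethanol had 5410 values that could not be used, among them 5403 exact zeros. Probe sets with such a value were left out.

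Intensities were quantile normalised and taken as log2(intensity + 16), a scale that understates changes of dim genes. The brighter 50% of probe sets (mean log2 of at least 5.4) entered 1 limma fit over the 8 arrays (limma 3.58.1, R 4.3.3), with a mean for each of the 4 groups and a variance prior that follows intensity. It had 4 residual and 5.43 prior degrees of freedom. P-values were adjusted by Benjamini-Hochberg over all probe sets in each comparison, and a probe set was called under 0.05. Errors are standard errors. The number of arrays limits the precision. The fit was tested on simulated data.

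Members and lists were chosen with earlier results of these data known. Full values are given for Nfe2l2, Keap1, Nqo1, Gclc, Gclm, Hmox1, Txnrd1, Srxn1, Slc7a11 and up to 5 called members with the highest and 5 with the lowest difference in each comparison. Whether the letters A and B pair arrays was not settled. Deviations from the group mean on A arrays of different groups correlated at 0.0218 to 0.302, all positive. The letter was used as an alternative only. Alternatives were trimmed-mean scaling, an offset of 64, no filter, no trend, the letter as a replicate block, the spike-in ratio set, incomplete probe sets kept, 1 row per gene, the compared groups alone, the B ethanol arrays left out or counted as untreated, and each array left out. Leaving out the 3 dim KO arrays was added after seeing the data.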

Additional observations from a re-analysis of the deposited data

Results flagged for a closer look

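The ethanol effect differed between genotypes, by limma's interaction test, for 3 members on their brightest probe sets and for 8 further probe sets of members. Values are the ethanol effect in KO cells minus that in WT cells on the log2 scale. On the brightest probe sets it was -1.44 for Sephs2 (SE 0.13, adjusted p 0.0014), 0.467 for Hmox1 (SE 0.11, adjusted p 0.041) and 0.436 for Gstm3 (SE 0.097, adjusted p 0.035). The other Sephs2 probe sets gave -0.269 (SE 0.13, adjusted p 0.25) and 0.0669 (SE 0.16, adjusted p 0.85). The further probe sets of Txnrd1 gave 2.06 (SE 0.23, adjusted p 0.0025) and 1.77 (SE 0.27, adjusted p 0.0087). Keap1 gave 1.55 (SE 0.21, adjusted p 0.0048) on its further probe set. Srxn1 gave 0.964 (SE 0.12, adjusted p 0.0042) and 0.702 (SE 0.091, adjusted p 0.0045), and Gsr gave 0.959 (SE 0.15, adjusted p 0.0085). Gstm3 gave 0.763 (SE 0.16, adjusted p 0.025) on its further probe set and Pgd gave 0.573 (SE 0.11, adjusted p 0.018). The Pcx 3' to 5' ratio differed between genotypes in the same arrays, at 4.909 and 5.448 in ethanol-treated KO cells against 26.7 and 44.55 in ethanol-treated WT cells, and its part was not tested.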

How the results depend on the processing

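The 26 untreated genotype calls varied least: the count stayed within 1.5 times under every alternative, between 18 and 32, and 14 calls held under all of them (Gclc, Gclm, Gss, Slc7a11, Gsta4, Gstm3, Sod2, Nqo1, Cbr1, Cbr3, Hmox1, Taldo1, Abcc3 and Abcc4). Of the 21 calls with ethanol, 3 held under all alternatives, and of the 6 for ethanol in WT, 14 for ethanol in KO and 3 for the interaction, none did. Counting both B ethanol arrays as untreated left 3 calls between genotypes with ethanol and 0 calls by limma for ethanol in WT (0 at an unadjusted p under 0.05), 0 for ethanol in KO (4 unadjusted) and 0 for the interaction (4 unadjusted). Leaving both out, which leaves 1 ethanol array per genotype, gave 22 for ethanol in KO and 12 for the interaction. Without the intensity trend 1 member was called for ethanol in WT, 3 for ethanol in KO and 1 for the interaction. Keeping incomplete probe sets gave 3 for ethanol in WT and 1 for the interaction. Compared groups alone gave 6 for ethanol in KO, and the interaction had 5 calls with trimmed-mean scaling, 1 with no filter and 7 with 1 row per gene. Leaving out each array in turn gave 1 to 10 calls for ethanol in WT, 2 to 21 for ethanol in KO and 1 to 13 for the interaction. For ethanol in WT the count was 10 without KO ethanol A or B, 2 without WT ethanol A or WT untreated B, and 1 without WT ethanol B or WT untreated A. For ethanol in KO it was 2 without KO untreated A, 4 without KO untreated B and 21 without KO ethanol B. For the interaction it was 5 without KO ethanol A, 13 without KO ethanol B and 1 without each of the other 6 arrays. With the 3 dim KO arrays left out 21 members were called between genotypes with ethanol, 18 of them among the 21 above, in a fit whose only KO array is assumed to vary like the WT arrays. The replicate block gave 26 and 22 calls between genotypes (without and with ethanol), 6 and 13 for ethanol in WT and in KO, and 3 for the interaction. No member called in the main setting was called the other way under an alternative. Signs of called members turned without passing the test as follows. With 1 row per gene they turned for Txnrd1 untreated (0.102), Sod1 for ethanol in WT (-0.111) and Gsta3 between genotypes with ethanol (-0.0172). With trimmed-mean scaling they turned for Pgd untreated (0.00385) and Sod1 for ethanol in KO (-0.0528). Sephs2 untreated turned with both B ethanol arrays taken as untreated (-0.0987). Some members not called in the main setting turned sign and were called with trimmed-mean scaling. Untreated, these were Srxn1 (0.281), Gstm1 (0.651), Gstp1 (0.713), Tkt (0.354) and Txn1 (0.443). For ethanol in KO it was Gstp1 (-0.578). Among the genes with full values, Gclm for ethanol in KO turned with 1 row per gene (-0.37). Turns under the other alternatives are not listed here for every uncalled member. The cause was not tested. With 2 arrays a group the precision is limited by their number.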
